A study of Mus musculus with 12 samples.

Results

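The integrin αvβ3 is a surface receptor made of the αv chain (Itgav) and the β3 chain (Itgb3), and it binds matrix and cell surface proteins that display a short arginine-glycine-aspartate loop, written RGD. Transcripts of 9 of its ligands were followed here, among 26202 gene symbols in the table: the secreted proteins osteopontin (Spp1), thrombospondin-1 (Thbs1), fibronectin (Fn1), tenascin-C (Tnc), lactadherin (Mfge8) and vitronectin (Vtn), and the surface proteins Thy-1 (Thy1), L1CAM (L1cam) and CD31 (Pecam1). The genes were taken from a list of named ligands and not by a cut on their values, but earlier results of these data were known when it was chosen. RNA-seq covered 12 libraries of mouse spleen CD4+ T cells, 3 for each pairing of subset (TH1 or TH2) and genotype (control or Itgav KO).

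Naïve cells were cultured for 5 days on antibodies to CD3 and CD28 with IL-2 before live CD4+ cells were sorted. IL-12 with anti-IL-4 gave TH1 cells, known for interferon-γ, and IL-4 with anti-interferon-γ gave TH2 cells, known for IL-5 and IL-13. Control mice carried a Cre recombinase under the Cd4 promoter that acts only after a tamoxifen compound is given (Cd4 CreERT2), and KO mice carried the same Cre with a conditional Itgav allele, so both genotypes hold the Cre. The study's methods list 4-hydroxytamoxifen for culture, but do not say when it was given to the sequenced cells, and the sort was on live CD4+ cells and not on loss of αv. The labels number the libraries without naming a mouse or a culture, so the p-values measure the spread between libraries, which may be technical. The labels and methods used here state no age for these mice.

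Thy-1 is a small glycolipid-anchored protein of the T cell surface, and osteopontin is a secreted phosphoprotein that T cells and macrophages make and that also binds CD44. Lactadherin bridges dying cells to phagocytes, CD31 is an adhesion protein of endothelium, platelets and leukocytes, and L1CAM is an adhesion protein best known from neurons. Fibronectin, vitronectin, thrombospondin-1 and tenascin-C are matrix or plasma proteins made chiefly by stromal cells, platelets or liver.

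The coding sequence around the motif is shown for each ligand because the RGD codons are what the group is named for. It was read from 1 coding transcript a gene in GENCODE M21 (GRCm38). RGD codons were present in 6 of the 9 ligands, and the other 3, Thy1, Tnc and Pecam1, held only the related arginine-leucine-aspartate (RLD) codons in the models read. Over all 21516 coding genes read the same way, 7.26% held an RGD and 10.4% an RLD, so a match alone is common and is no evidence of a binding site. In the lines below, 4 codons on each side are in lower case and the RGD or RLD codons are in capitals.
Spp1 RGD: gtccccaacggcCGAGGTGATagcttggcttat
Mfge8 RGD: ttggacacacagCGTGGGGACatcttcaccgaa
Vtn RGD: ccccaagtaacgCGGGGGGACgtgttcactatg
Fn1 RGD: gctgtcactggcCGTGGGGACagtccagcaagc
Thbs1 RGD: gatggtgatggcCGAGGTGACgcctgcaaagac
L1cam RGD: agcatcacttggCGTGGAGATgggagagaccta
Thy1 RLD: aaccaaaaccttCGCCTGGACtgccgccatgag
Pecam1 RLD: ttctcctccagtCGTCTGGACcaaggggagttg
Tnc RLD: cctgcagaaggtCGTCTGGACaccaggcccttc
The Spp1 motif starts at codon 145 of 295, in exon 7 of 8 on the plus strand (chr5:104439469-104439501). The Thy1 motif starts at codon 35 of 162, in exon 3 of 4 on the plus strand (chr9:44046667-44046699), and that of Pecam1 at codon 325 of 732, in exon 7 of 16 on the minus strand (chr11:106691126-106691158). The Mfge8 motif starts at codon 87 of 463 in exon 3 of 10 (chr7:79145296-79145328), and the first L1cam motif at codon 553 of 1259 in exon 14 of 29 (chrX:73861071-73861103). Fn1 and L1cam each held 2 RGD motifs, and the Fn1 motif shown starts at codon 1614 of 2477 in exon 30 of 46 (chr1:71606734-71606766). The windows of Vtn, Thbs1 and Tnc cross an exon junction. L1cam and Mfge8 also held 1 RLD each.

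Values are CPM, the authors' counts of reads in genes scaled so that each library has the same total. The libraries held 6344185 to 13312233 reads in genes, so that 3 reads, taken as the floor, were worth 0.225 to 0.473 CPM. A gene entered the test if 3 or more libraries had it at 10 CPM or above, which kept 9121 genes. The test was limma on log2(CPM + 1), with p-values adjusted by Benjamini-Hochberg over all of them and called below 0.05. Changes on this scale understate those of low genes. Of the ligands, 5 passed the filter: Spp1, Thy1, Pecam1, L1cam and Mfge8. Markers of CD4 T cells summed to 5061 to 5853 CPM in every library. Those of platelets summed to at most 5.99 CPM, of endothelium to at most 12.5 CPM and of hepatocytes to at most 0.329 CPM. The sums reached 11.98 CPM for B cells, 14.5 CPM for dendritic cells and 19.3 CPM for CD8 T and NK cells. Fibroblast markers summed to 12.996 to 17.973 CPM in TH1 control and to 2.63 to 9.29 CPM in TH1 Itgav KO libraries. In TH2 libraries their sums were 0 to 4.32 CPM in control and 0.315 to 1.52 CPM in KO. The 1 tested fibroblast marker, Lum, was called lower in TH2 than in TH1 control cells (log2 −2.61). Lum reached 10 CPM in TH1 control libraries only. It thus entered the test through the group where it was high and could only come out lower. Macrophage markers are given with Spp1 below. The ribosomal RNA gene Rn45s took 5.84% of TH2 control 1 and 0.751% to 2.30% of the other libraries. Libraries of a group differed by more than counting noise (chi-square of 18.5 to 76.3 per degree of freedom), which does not show that they came from separate cultures.

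The targeted gene followed its labels. Itgav was at 227, 228 and 154 CPM in TH1 control and at 42.8, 21.3 and 28.1 CPM in TH1 Itgav KO libraries. In TH2 cells it was at 250, 195 and 313 CPM in control and at 55.2, 43.5 and 60.5 CPM in KO libraries. The groups did not overlap, and the KO mean was 15.1% of the control mean in TH1 and 21% in TH2 cells, so Itgav transcript remained in every KO library. Below, loss of αv names the comparison of KO with control libraries. Fewer cells with a transcript and less of it per cell cannot be told apart in these bulk samples, here and for every gene below.

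Among the ligands, Thy1 was by far the highest, Spp1 was lower in TH2 Itgav KO than in TH2 control cells, and Pecam1 was higher in TH2 than in TH1 cells. Per kilobase of exon, which allows genes to be compared, Thy1 stood at 819 ± 1.86 CPM per kb (SD, n = 3) in TH1 control cells, ahead of Spp1 at 63.0 ± 12.6, Mfge8 at 10.5 ± 2.58, L1cam at 5.49 ± 0.64 and Pecam1 at 1.31 ± 0.34. In TH2 control cells the order on this scale was Thy1 (501 ± 46.2 CPM per kb), Spp1 (33.0 ± 19.0), Mfge8 (14.2 ± 3.67), Pecam1 (9.35 ± 3.53) and L1cam (3.28 ± 2.07). In TH2 Itgav KO cells Spp1 dropped to the last place of the tested ligands, at 3.36 ± 1.23 CPM per kb, below Mfge8 (16.1 ± 0.61), Pecam1 (14.7 ± 3.69) and L1cam (3.96 ± 2.08). Libraries of neighbours in this order overlapped for Spp1 and Mfge8, Mfge8 and Pecam1, and Pecam1 and L1cam in TH2 control cells, and for Mfge8 and Pecam1 and for L1cam and Spp1 in TH2 Itgav KO cells, so these places are not separated.

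As a share of the summed CPM per kb of the 9 ligands, Thy1 made up 90.9% ± 1.34 in TH1 control, 93.2% ± 0.289 in TH1 Itgav KO, 89.3% ± 1.53 in TH2 control and 93.4% ± 0.760 in TH2 Itgav KO cells. The share of Spp1 was 6.99% ± 1.32, 4.52% ± 0.188, 5.72% ± 2.98 and 0.564% ± 0.216 in the same order of groups. Pecam1 held 0.145% ± 0.038, 0.386% ± 0.064, 1.71% ± 0.804 and 2.46% ± 0.618. These are shares of transcript, not of protein.

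**Figure D1:**
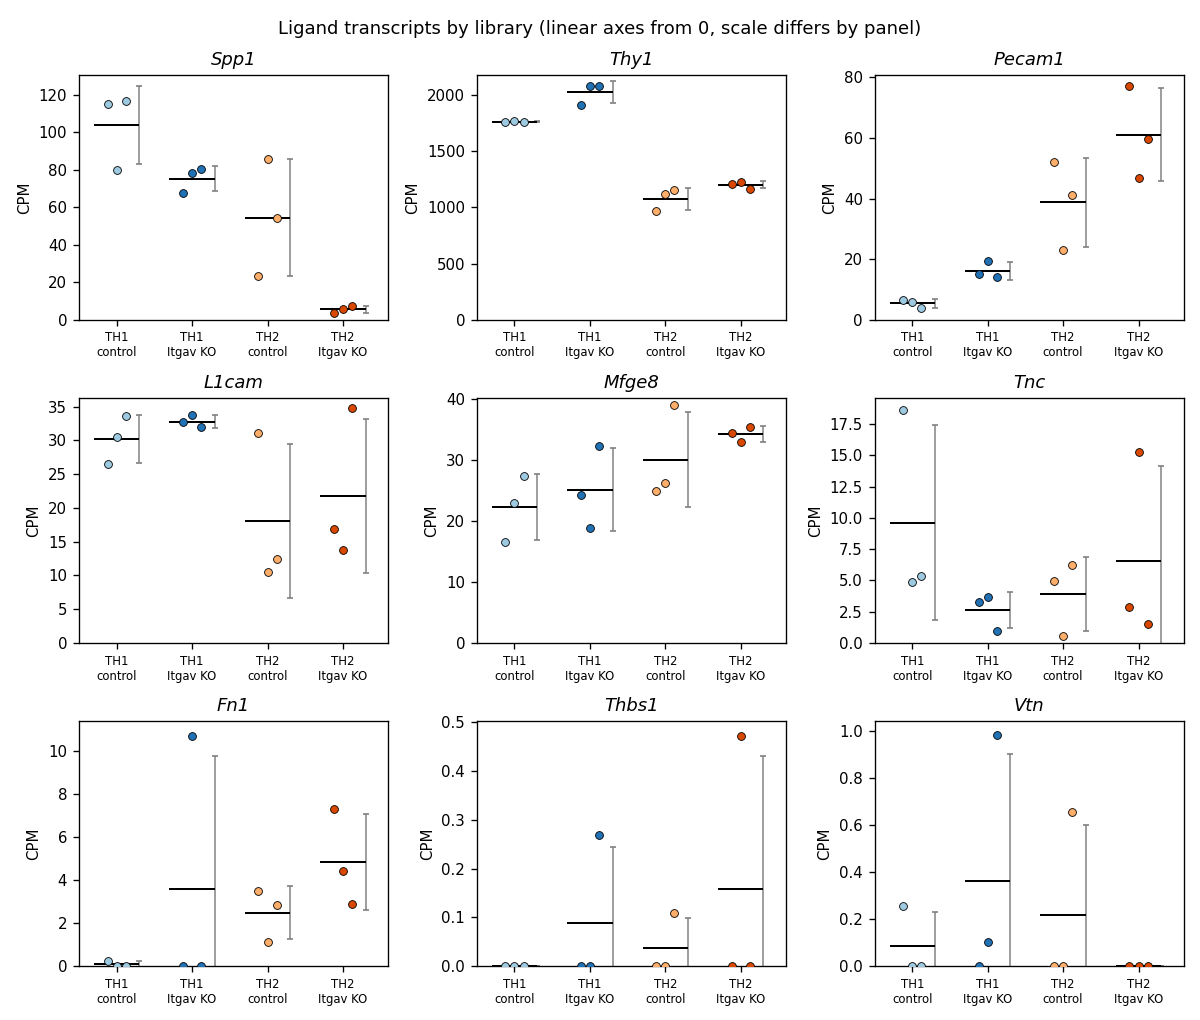
Level of each ligand transcript in CPM (linear axes from 0, with a scale of its own for each gene) in the 4 groups. Points are libraries, black lines are means and grey bars are 1 SD (n = 3). Spp1 lies between 3.51 and 7.58 CPM in TH2 Itgav KO cells and between 23.3 and 85.8 CPM in TH2 control cells, and Thbs1 and Vtn stay under 1 CPM in every library.

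Of the secreted ligands, osteopontin had the largest fitted change with loss of αv among the 5 tested. Spp1 was at 23.3, 85.8 and 54.2 CPM in TH2 control libraries 1 to 3 and at 3.51, 5.52 and 7.58 CPM in TH2 Itgav KO libraries. The groups did not overlap, although the controls spread over a wide range with library 1 the lowest. The control mean, 54.5 ± 31.3 CPM, was 9.84 times the KO mean of 5.53 ± 2.03 CPM. The log2 change was −2.95 ± 0.36 (SE; 95% interval −3.71 to −2.19; limma, adjusted p = 8.49e-05). It was called in 18 of 18 alternative settings, with a log2 change between −3.45 and −2.48 and a highest adjusted p of 0.0275.

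In TH1 cells Spp1 was at 115, 79.9 and 116 CPM in control and at 67.6, 78.1 and 80.2 CPM in Itgav KO libraries. The highest KO library lay just above the lowest control library, so the groups overlapped. The log2 change was −0.44 (95% interval −1.20 to 0.32; limma, adjusted p = 0.777). The difference between the effects in TH2 and in TH1 cells was −2.51 ± 0.52 on the log2 scale (95% interval −3.58 to −1.44; limma, adjusted p = 0.0339). That call was close to the threshold. It was lost with no filter (adjusted p = 0.194), without the trend of the variance on the mean (0.205), and when any 1 of 10 libraries was left out, namely each TH1 control, each TH1 Itgav KO, TH2 control 2 or 3, and TH2 Itgav KO 1 or 2 (adjusted p = 0.0533 to 0.132), with the difference between −2.60 and −2.10.

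Between subsets, Spp1 was lower in TH2 than in TH1 cells. In control cells the log2 difference was −1.08 ± 0.36 (95% interval −1.84 to −0.32; limma, adjusted p = 0.0434), with overlapping groups. It was called in only 8 of 18 alternative settings. Leaving out TH2 control 1, the lowest library, gave −0.58 (adjusted p = 0.249), and leaving out any TH1 control library (adjusted p = 0.0529 to 0.155) or TH2 control 3 (0.0588) lost the call too. In Itgav KO cells the difference was −3.59 ± 0.36 (limma, adjusted p = 2.00e-07), the groups did not overlap, and the call was kept in all 18 alternatives.

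Markers of other cells and of each subset were read beside Spp1. Of 10 macrophage and monocyte markers, 5 stayed under 1 CPM in every library, with Lyz2 and C1qa at 0 throughout and Csf1r at 0 in all libraries except 1 (3.04 CPM in TH1 Itgav KO 3). Their sum was 5.55 to 33.4 CPM. Cd68, a lysosomal protein abundant in macrophages, was at 2.11 to 13.5 CPM in TH1 and at 12.9 to 32.9 CPM in TH2 libraries. It was the 1 tested marker of this list and was called higher in TH2 than in TH1 control cells (log2 2.06). Between KO subsets it was not called (log2 1.21). TH1 Itgav KO 2 was the only TH1 library above 10 CPM, so Cd68 entered the test through the subset where it was high. The TH2 groups overlapped for Cd68. Mrc1 went the other way between subsets, at 6.63, 6.16 and 1.41 CPM in TH1 control libraries. It was at 0.455 to 0.709 CPM in TH1 Itgav KO, at 0 in TH2 control and at 0.473 CPM or less in TH2 Itgav KO libraries. Cd14 peaked at 6.05 CPM in TH2 control 1, and Adgre1 was read only in TH1 control 3. The TH2 markers Gata3, Il4, Il5 and Il13 summed to 2019 to 3142 CPM in TH2 control and to 1190 to 1721 CPM in TH2 Itgav KO cells, with Il5 (−2.37, limma, adjusted p = 0.00210) and Il13 (−2.09, adjusted p = 0.00953) falling in log2. Il4 (0.24) and Gata3 (−0.15) were not called, and their groups overlapped. The TH1 markers Tbx21, Ifng, Il12rb2 and Cxcr3 summed to 260 to 394 CPM in TH2 control and to 496 to 543 CPM in TH2 Itgav KO cells. Only Il12rb2, a chain of the IL-12 receptor, was called among them (0.73, adjusted p = 0.00474), while Ifng (−0.87), Cxcr3 (−1.20) and Tbx21 (−0.41) had negative log2 values that did not pass the test. The part of these marker genes in the Spp1 result was not tested.

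No comparison called lactadherin. Mfge8 was at 16.6, 22.9 and 27.5 CPM in TH1 control, 24.2, 18.8 and 32.4 CPM in TH1 Itgav KO, 24.9, 26.3 and 39.1 CPM in TH2 control and 34.5, 32.9 and 35.5 CPM in TH2 Itgav KO libraries. All neighbouring groups overlapped except the KO cells of the 2 subsets. With loss of αv the log2 change was 0.21 in TH2 cells (95% interval −0.45 to 0.87) and 0.16 in TH1 cells (−0.50 to 0.82). Between subsets it was 0.42 in control cells (−0.24 to 1.07) and 0.47 in KO cells (−0.19 to 1.12), and no alternative setting called any of these 4 differences. The intervals leave room for changes of either sign with loss of αv.

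The other 4 secreted ligands did not reach the filter. Tnc was at 18.6, 4.88 and 5.37 CPM in TH1 control, 3.28, 3.65 and 0.983 CPM in TH1 Itgav KO, 4.99, 0.568 and 6.24 CPM in TH2 control and 2.86, 15.3 and 1.52 CPM in TH2 Itgav KO libraries. It was above 0 in all 12 libraries and at 10 CPM or more in 2 of them, 1 in TH1 control and 1 in TH2 Itgav KO. Fn1 peaked at 10.7 CPM in TH1 Itgav KO 2 and was at 0 in the other TH1 Itgav KO libraries, at 0.255 CPM or less in TH1 control and at 1.14 to 7.30 CPM in the 6 TH2 libraries. With the filter lowered to 1 CPM (12145 genes), neither Tnc nor Fn1 was called in any comparison, the nearest being Fn1 between TH2 and TH1 control cells (log2 1.63, limma, adjusted p = 0.151).

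Thbs1 was above 0 in 3 libraries and Vtn in 4, at no more than 0.473 and 0.983 CPM. These levels are those of a few reads. With no filter (16414 genes) neither was called in any comparison, and at this depth a difference between groups was not detectable. Platelet markers, whose cells carry thrombospondin-1, were likewise low, with Pf4 at 0 in all libraries except TH2 control 3 (0.438 CPM).

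Of the surface ligands, Thy1 was abundant in every library and set apart the subsets. It was at 1757, 1765 and 1759 CPM in TH1 control, 1910, 2081 and 2077 CPM in TH1 Itgav KO, 963, 1115 and 1151 CPM in TH2 control and 1205, 1230 and 1167 CPM in TH2 Itgav KO libraries. Every TH1 library exceeded every TH2 library, and in each subset every KO library exceeded every control library. TH1 control cells averaged 1.64 times the level of TH2 control cells (log2 −0.71 ± 0.10 for TH2 against TH1; limma, adjusted p = 2.36e-05), and KO cells gave −0.75 ± 0.10 (adjusted p = 1.12e-05). Both were called in all 18 alternatives.

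The higher Thy1 values of KO libraries were small and did not pass the test. The log2 change was 0.16 in TH2 cells (95% interval −0.05 to 0.37; limma, adjusted p = 0.412) and 0.20 in TH1 cells (−0.01 to 0.41; adjusted p = 0.530). The difference between those effects was −0.04 (−0.34 to 0.26). No alternative called Thy1 with loss of αv.

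Pecam1 had the largest difference between control subsets in log2 size among the tested ligands, and it was opposite in sign to that of Thy1 and Spp1. It was at 6.63, 5.78 and 3.88 CPM in TH1 control, 15.0, 19.4 and 14.0 CPM in TH1 Itgav KO, 52.2, 23.2 and 41.1 CPM in TH2 control and 77.1, 46.7 and 59.5 CPM in TH2 Itgav KO libraries. All TH2 libraries exceeded all TH1 libraries of either genotype. The TH2 control mean was 7.15 times the TH1 control mean (log2 2.58 ± 0.36; limma, adjusted p = 1.92e-05), and among KO cells the difference was 1.84 ± 0.36 (adjusted p = 0.000735). Both calls were kept in all 18 alternatives.

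With loss of αv, every TH1 Itgav KO library had more Pecam1 than every TH1 control library, and the means differed by 2.98 times. The log2 change of 1.43 ± 0.36 (95% interval 0.67 to 2.18; limma, adjusted p = 0.0673) missed the threshold, and 2 of 17 alternatives called it, quantile normalisation (adjusted p = 0.0444) and array weights (0.00750). In TH2 cells the change was 0.69 ± 0.36 (−0.07 to 1.44; adjusted p = 0.312), with overlapping groups, and the effects of the 2 subsets did not differ by the test (−0.74, −1.81 to 0.33; adjusted p = 0.631). Averaged over both subsets, a comparison chosen after the data were seen, Pecam1 rose by 1.06 ± 0.26 in log2 (limma, adjusted p = 0.0223). The averaged call was lost without TH1 control 3 (0.0607), TH1 Itgav KO 2 (0.0638) or TH2 Itgav KO 1 (0.0672), without TH2 control 2 and TH2 Itgav KO 3 together (0.0570), and with no filter (0.0725).

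Endothelial and platelet markers gave the background for Pecam1. In all 6 TH2 libraries, where Pecam1 was highest, the 6 endothelial markers were at 0, among them Cdh5 and Vwf. In TH1 libraries only Kdr, a receptor of vascular endothelial growth factor, was read among them above 1 CPM, at up to 12.5 CPM in TH1 Itgav KO 2. Platelet markers summed to 5.99 CPM or less.

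L1cam was at 26.5, 30.4 and 33.6 CPM in TH1 control, 32.7, 33.7 and 31.9 CPM in TH1 Itgav KO, 31.1, 10.4 and 12.5 CPM in TH2 control and 16.8, 13.7 and 34.8 CPM in TH2 Itgav KO libraries. In each TH2 group 1 library stood at the TH1 level, TH2 control 1 and TH2 Itgav KO 3. No comparison called it (log2 0.31 with loss of αv in TH2 cells, 0.12 in TH1 cells, −0.86 between control subsets and −0.68 between KO subsets; limma, adjusted p = 0.727, 0.971, 0.145 and 0.235). The difference between control subsets was called in 2 of 18 alternatives, without TH2 control 1 (−1.32, adjusted p = 0.0197) and with array weights (adjusted p = 0.0309). That between KO subsets was called in 1 of 18, without TH2 control 2 and TH2 Itgav KO 3 together (−1.06, adjusted p = 0.0336). L1cam exons overlap those of Arhgap4 on the same strand in the annotation, which was at 30.1 to 90.7 CPM here, so reads of these neighbours may have been shared and the L1cam level is uncertain.

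**Figure D2:**
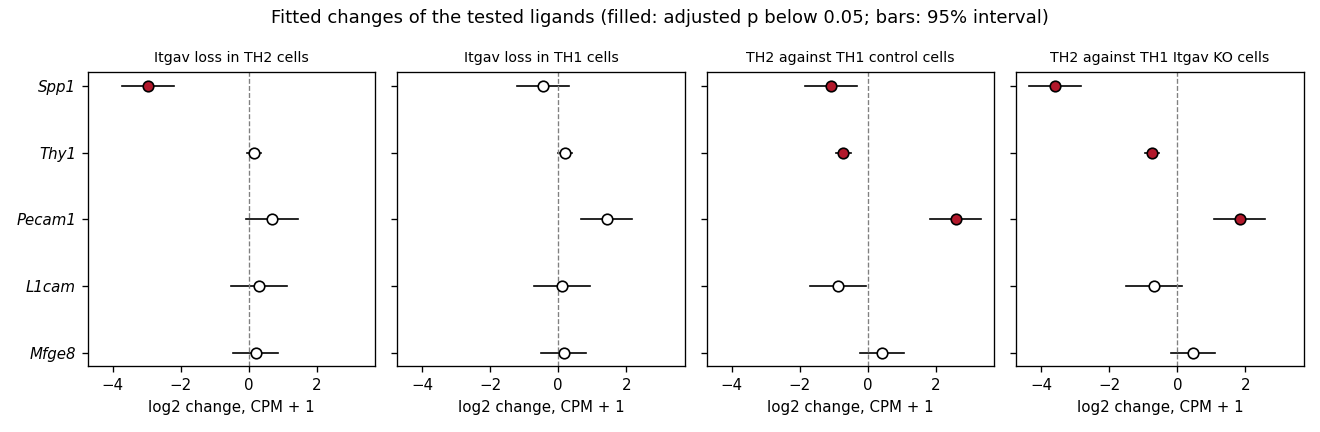
Fitted log2 change in CPM + 1 of the 5 tested ligands (x axis) in 4 comparisons, with the 95% interval as a bar. Filled points are called at an adjusted p below 0.05: Spp1 in 3 of the comparisons, at −2.95, −1.08 and −3.59, and Thy1 and Pecam1 between subsets only.

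Counted over the ligands, the tests read as follows against the background of all 9121 genes. With loss of αv in TH2 cells 1 ligand fell and 0 rose, where 1.67% of all genes were called lower and 1.92% higher, and the median log2 change was 0.21 over the 5 tested ligands and 0.04 over all genes. In TH1 cells 0 ligands were called in either direction by limma, with 1, Pecam1, at an unadjusted p under 0.05, where 0.515% of all genes were called lower and 0.329% higher. For the difference between these effects 1 ligand was called lower and 0 higher, against 0.143% and 0.263% of all genes.

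Between control subsets 1 ligand was higher in TH2 cells and 2 were lower, where 8.58% and 9.75% of all genes were called, and the medians were −0.71 over the tested ligands and −0.01 over all genes. Between KO subsets 1 was higher and 2 were lower, against 12.2% and 11.6%. In the averaged effect 1 rose and 1 fell (Spp1 −1.70 ± 0.26, limma, adjusted p = 0.000515), against 2.18% and 2.04%. Spp1 and Pecam1 passed the filter through 9 libraries each, with Spp1 under 10 CPM in TH2 Itgav KO and Pecam1 in TH1 control cells, and Tnc and Fn1 fell short by 1 and 2 libraries. Loss of αv in TH2 cells and TH2 against TH1 control cells share the TH2 control libraries, so their values are not independent.

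The receptor side was read from a list of 9 chains of RGD-binding integrins, of which 5 were tested. Itgb3, the partner of αv in αvβ3, was at 9.69, 13.9 and 7.67 CPM in TH1 control, 15.6, 13 and 23.1 CPM in TH1 Itgav KO, 135, 64.7 and 85.0 CPM in TH2 control and 182, 176 and 229 CPM in TH2 Itgav KO libraries. TH2 libraries exceeded all TH1 libraries (control log2 3.04 ± 0.31; limma, adjusted p = 1.87e-07), and TH2 KO libraries exceeded all TH2 controls without passing the test (1.09 ± 0.31; adjusted p = 0.0502). In the average over both subsets Itgb3 was called (0.88, adjusted p = 0.0235). Itgb5, the β5 chain, was higher in TH2 control cells (log2 1.79, adjusted p = 0.00979). It was at 6.88, 3.98 and 9.25 CPM in TH1 control libraries, and TH1 Itgav KO 2 (23.7 CPM) was the only TH1 library above 10 CPM. Every TH2 library was above 10 CPM, so Itgb5 entered the test through the subset where it was high. Itgav was the only chain called with loss of αv, in either subset. Over all genes 1.67% were called lower and 1.92% higher in TH2 cells, and 0.515% and 0.329% in TH1 cells.

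Of 16 other receptors of the ligands, 11 were tested. Cd44, the osteopontin receptor outside the integrins, was at 284, 292 and 288 CPM in TH1 control and at 164, 182 and 187 CPM in TH1 Itgav KO libraries, a fall of 0.70 ± 0.15 in log2 (limma, adjusted p = 0.0289). In TH2 cells it was at 460, 336 and 311 CPM in control and at 257, 277 and 216 CPM in KO libraries, without overlap (log2 −0.55, adjusted p = 0.0520). Cd44 was the only member called in TH1 cells, where 0.515% of all genes were called lower. In TH2 cells 2 were called higher and 0 lower, against 1.92% and 1.67% of all genes, and 5 of the 11 were at an unadjusted p under 0.05. Among those 5, Cd44, Sdc1 (log2 −1.30, limma, adjusted p = 0.126) and Egfr (−1.40, adjusted p = 0.139) had lower values in every KO than in every control library without passing the test.

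The members that rose in TH2 cells were Itga4, the α4 chain of the fibronectin receptor α4β1, and Sdc4, a syndecan that binds fibronectin. Itga4 was at 20.6, 40.7 and 28.3 CPM in TH2 control and at 60.5, 70.6 and 142 CPM in TH2 Itgav KO libraries (log2 1.53 ± 0.30; limma, adjusted p = 0.00635). Sdc4 was at 16, 4.77 and 13.1 CPM in control and at 36.9, 59.9 and 23.1 CPM in KO libraries (log2 1.77 ± 0.41; adjusted p = 0.0182). Neither differed between KO TH2 and KO TH1 cells by the test (log2 −0.03 and 0.14), and the effects in TH2 and TH1 cells did not differ by it either (adjusted p = 0.0714 and 0.321). Between control subsets 3 receptors were higher in TH2 cells and 2 lower, against 8.58% and 9.75% of all genes, with the largest log2 differences in Egfr, the epidermal growth factor receptor (4.43), Sdc1, a syndecan (2.99), and Itga4 (−1.80). Egfr and Sdc1, like Fgf2 and Mmp7 below, reached 10 CPM in TH2 libraries only, so they entered the test through the subset where they were high.

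**Figure D3:**
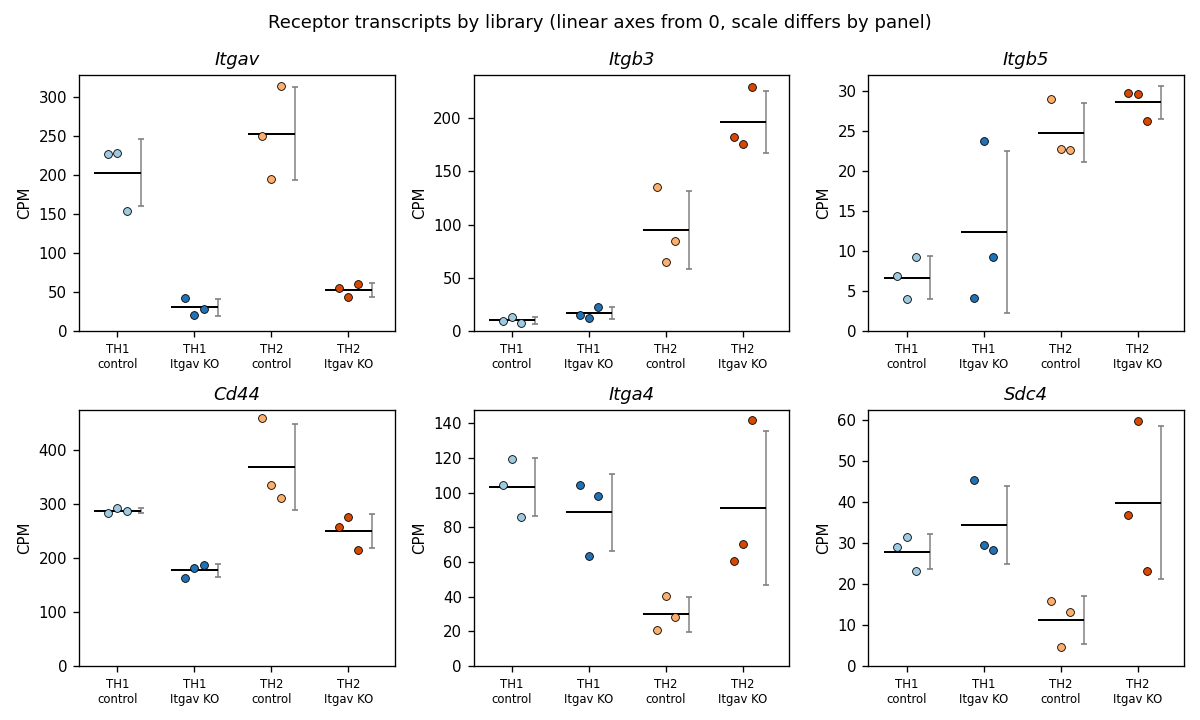
Level of 6 receptor transcripts in CPM (linear axes from 0, with a scale of its own for each gene) in the 4 groups. Points are libraries, black lines are means and grey bars are 1 SD (n = 3). Itgb3 is at 64.7 CPM or more in every TH2 library and at 23.1 CPM or less in every TH1 library, and Itga4 is lowest in TH2 control cells, at 20.6 to 40.7 CPM.

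Of 38 other candidate ligands of αv integrins, 7 were tested, and limma called 0 with loss of αv in either subset (0 in TH2 and 1 in TH1 cells at an unadjusted p under 0.05). Over all genes 1.67% were called lower and 1.92% higher in TH2 cells, and 0.515% and 0.329% in TH1 cells. The most abundant of these candidates were Lama5, a laminin chain, and Tgfb1, whose latent form binds αv integrins, at a mean of 112 and 94.9 CPM over the 12 libraries. Between control subsets 2 were higher in TH2 cells and 1 lower, against 8.58% and 9.75% of all genes: Lama5 (log2 1.51, adjusted p = 1.80e-05), Fgf2 and Cd40lg, the CD40 ligand (−2.25, adjusted p = 7.43e-06). Fgf2, a growth factor, was at 0 in all TH1 libraries and at a mean of 29.7 CPM in TH2 control cells, at least 77.7-fold higher than 3 reads in the shallowest TH1 control library.

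Of 17 proteases and other enzymes that act on the ligands, 7 were tested and limma called 0 with loss of αv in either subset (2 in TH2 and 0 in TH1 cells at an unadjusted p under 0.05). The shares of all genes called were 1.67% lower and 1.92% higher in TH2 cells, and 0.515% and 0.329% in TH1 cells. The most abundant of these enzymes were Tgm2, the transglutaminase that cross-links osteopontin and fibronectin, and Ctsd, a lysosomal protease. Between control subsets 4 were higher and 1 lower in TH2 cells, against 8.58% and 9.75% of all genes, among them Tgm2 (log2 1.48). Mmp7, a matrix metalloproteinase that cleaves osteopontin, was at 8.70 to 22 CPM in TH2 control libraries and at 0.529 CPM or less in TH1 control libraries, too few reads for a fold.

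Of 16 surface genes of the immunoglobulin superfamily or related to Thy-1, 12 were tested, and 10 were lower in TH2 than in TH1 control cells with 0 higher, where 9.75% of all genes were called lower. Of the 10, Chl1, Ly6c2 and Cd24a reached 10 CPM in TH1 libraries only, so they entered the test through the subset where they were high and could only come out lower. Those with the largest fitted differences were Ly6c2, Ly6c1 and Chl1. Chl1, a relative of L1CAM, was at 3.96 to 16.4 CPM in TH1 control and at 0 in all TH2 control libraries, at least 35.7-fold higher in TH1 cells than 3 reads in the shallowest TH2 control library. Ly6c1 was lower in TH2 cells by a log2 difference of −4.09, and Ly6c2 was at 49.3 to 122 CPM in TH1 control and at 0.548 CPM or less in TH2 control libraries. Reads of the near-identical Ly6c1 and Ly6c2 may have been shared. With loss of αv, Cd48, a surface partner of CD2 and CD244, rose in TH2 cells from 211 to 264 CPM in control to 367 to 442 CPM in KO libraries (log2 0.83 ± 0.13; limma, adjusted p = 0.000777), and limma called 0 members in TH1 cells (3 at an unadjusted p under 0.05). Cd48 was the only member called in TH2 cells, where 1.92% of all genes were called higher and 1.67% lower. In TH1 cells these shares were 0.329% and 0.515%.

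The genes whose levels over the 12 libraries followed each called ligand most closely were found by Pearson r of log2(CPM + 1). For Thy1 they were Anxa6 (r = 0.986), Ly6c1 (0.983) and BC147527 (0.977). For Pecam1 they were Antxr2 (0.971), St6gal1 (0.969) and Pck2 (0.956), and for Spp1 they were Glud1, Hnrnpab and Fam107b (each 0.953). The 12 libraries fall into 4 groups, so these values mix differences between groups with those between libraries and are given as a description.

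**Figure D4:**
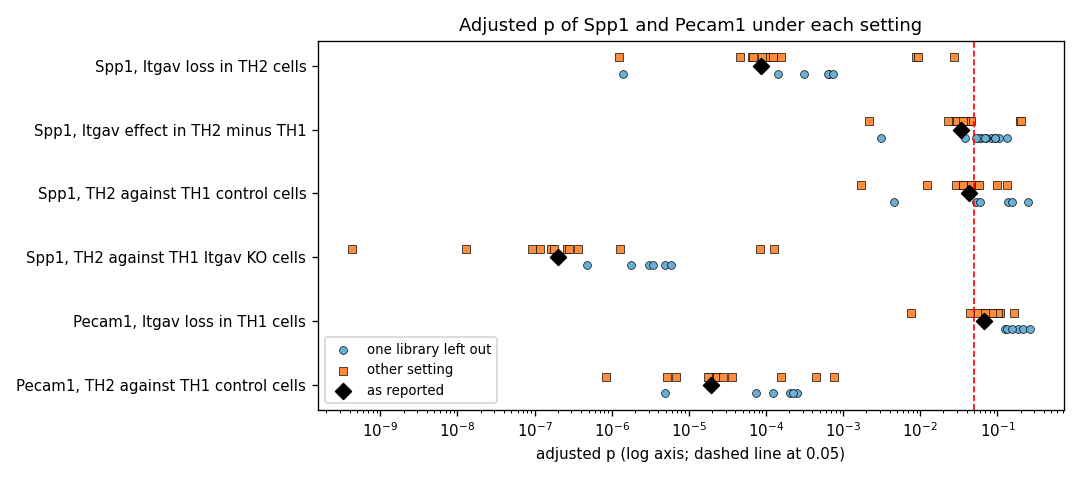
Adjusted p (x axis, log scale) of Spp1 and Pecam1 in 6 comparisons, as reported (diamond), with each library left out in turn (circles) and under other settings (squares). The dashed line marks 0.05. All points of Spp1 with loss of αv in TH2 cells lie left of the line, with a highest value of 0.0275, whereas those of the difference between subsets lie on both sides, from 0.00217 to 0.205.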

How the data were processed

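RNA was measured in 12 libraries, with groups and replicate numbers from the sample labels. The authors' notes name Trim Galore 0.50 for trimming, STAR 2.6.0a for alignment, GRCm38 and DESeq2 1.18.1. The gene counter and its annotation were not given in the sources used here. What they deposited is CPM with 0.0001 added, an offset that was subtracted. All values up to 1000 reads were whole multiples of 1 step within 0.1 reads, which gave each depth; no count test was run. CPM is relative, so 1 very abundant gene lowers the CPM of the others. Another 12 columns of CPM, named by running numbers, were not used.

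The test was limma 3.58.1 with a variance trend in R 4.3.3, on log2(CPM + 1), two-sided, 1 mean a group over all libraries (8 residual and 12.5 prior degrees of freedom), tested on simulated data. The comparisons were Itgav loss in TH2 and in TH1 cells, their difference, and TH2 against TH1 in control and in KO cells. Transcript models were GENCODE M21, 1 coding model a gene. Sequences of proteins were not used here.

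Members and lists were chosen with earlier results of these data known. Reported were all ligands, Itgav and Itgb3, at most 3 called members of each other list by log2 size or else the 2 most abundant, and the 3 genes nearest to each called ligand, leaving out predicted genes and receptor segments; Il5, Il13, Arhgap4 and single markers stand beside them, chosen after their values were seen. A gene that this rule would name is not reported here. Of the marker lists, Trac, Trbc2 and Ighm were not matched. Alternatives were other pseudocounts (0.25 and 4), filters, scalings, fits and libraries left out; the averaged comparison and leaving out Rn45s were chosen after the data were seen. Floors cover counting error only.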

Additional observations from a re-analysis of the deposited data

Results flagged for a closer look

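The effect of Itgav loss on Spp1 differed between the subsets by the test of the difference itself, at −2.51 on the log2 scale (TH2 minus TH1). Spp1 fell in all 3 TH2 Itgav KO libraries below all 3 TH2 controls, while the TH1 groups overlapped. The call of this difference was kept in 11 of 23 alternative settings.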

How the results depend on the processing

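Over 585 recomputed values of single ligands, 537 kept their direction and their side of the threshold, 27 lost a call, 5 gained one and 16 changed sign, none of them called. The count of ligands called with loss of αv in TH1 cells went from 0 to 1 under quantile normalisation and array weights. For the difference between subsets it went from 1 to 0 with no filter and without the variance trend, and lay between 0 and 1 with each library left out. For the averaged effect it went from 2 to 1 with no filter and without TH2 control 2 and TH2 Itgav KO 3 together, and lay between 1 and 2 with each library left out. Leaving out that pair turned L1cam to −0.36 in TH2 cells, to −0.48 in the difference and to −0.12 in the average, and in the difference Mfge8 to −0.054 and Thy1 to 0.0099. Array weights turned Mfge8 to −0.22 in the difference. With 1 library left out, L1cam ranged from −0.074 to 0.76 in TH2 cells and from −0.20 to 0.64 in the difference, Mfge8 from −0.032 to 0.34 in TH1 cells and from −0.13 to 0.25 in the difference, and Thy1 from −0.12 to 0.013 in the difference. Causes of these shifts were not tested. Spp1 between control subsets lost its call also with a pseudocount of 0.25 (adjusted p = 0.0525), the filter at 1 CPM (0.0508) and only the groups compared (0.0574). Of the 12 settings other than leaving out 1 library, 5 lost this call, with a highest adjusted p of 0.132 by limma. Groups left with 2 libraries, or 2 groups with 2 each, shared the spread estimated over all groups.

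No shared effect of the replicate number was seen: deviations of same-numbered libraries correlated between −0.0657 and 0.0256 over 18 pairs. These values cannot tell whether same-numbered libraries came from the same mouse or culture. With the replicate block, Spp1 in TH2 cells stayed at −2.95 (adjusted p = 8.77e-05), and the block changed no count of ligands called. Count tests, 3 further settings, were not run, because the deposited values are CPM with an offset. Depth limits Thbs1 and Vtn, which lay near the floor of 3 reads.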

Other observations

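In TH2 control libraries 1, 2 and 3, Spp1 (23.3, 85.8 and 54.2 CPM) had the same order of levels as Il5 (337, 701 and 576 CPM) and Il13 (651, 1229 and 1037 CPM), an order seen after the values were known and not tested. Il4 (263, 382 and 358 CPM) had it too, but Gata3 (768, 831 and 761 CPM) did not. In TH2 Itgav KO libraries 1, 2 and 3, Spp1 was at 3.51, 5.52 and 7.58 CPM. Neither Il5 (78.9, 73.8 and 165 CPM) nor Il13 (250, 189 and 223 CPM) had that order. TH2 control 2 also had the most Ifng among TH2 libraries, at 23.3 CPM, where the others had 1.65 to 3.94 CPM.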
